A study of Mus musculus with 6 samples.

Results

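miR-126a, miR-143 and miR-145a are the microRNAs (miRNAs) by which blood vessels are usually recognised in bulk small RNA data, and both arms of each were followed here in the dorsal striatum of mice after nicotine withdrawal. The 6 mature miRNAs were taken by name from a table of 756, and they were mmu-miR-126a-3p, mmu-miR-126a-5p, mmu-miR-143-3p, mmu-miR-143-5p, mmu-miR-145a-5p and mmu-miR-145a-3p. The withdrawal group (n = 3) was given nicotine at 0.5 mg/kg once a day for 3 days and the nicotinic receptor antagonist mecamylamine at 3.0 mg/kg, 24 hours after the final nicotine dose. The control group (n = 3) was given saline. All were C57BL/6N mice aged 7 weeks, the tissue was taken 1 week after the final injection, and no genotype differed between the groups. The withdrawal group had both drugs, so nicotine and mecamylamine cannot be told apart, and each group is 1 time point in 1 strain. Values are normalized reads, which are read counts that the authors divided by a size factor of each library.

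miRNAs are cut from a hairpin precursor whose 5p and 3p arms can each be loaded into an Argonaute protein, which then represses messenger RNAs that pair with bases 2 to 8, the seed. miR-126 lies in an intron of Egfl7, a gene of endothelial cells, the cells that line vessels, and its 3p arm supports vessel integrity by repressing Spred1 and Pik3r2, inhibitors of growth factor signalling. miR-143 and miR-145 are made from a single transcript in mural cells, the smooth muscle cells and pericytes that wrap vessels, and miR-145 holds smooth muscle in its contractile state, in part by repressing Klf4. In bulk tissue, fewer cells of a type and less of an RNA per cell cannot be told apart.

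The sequences of miR-126a are shown because its 3p arm was the member that passed the test below and because its locus is annotated on both strands. In RefSeq's table (build GRCm38.p6) Mir126a lies on the plus strand at chr2:26591357-26591429, in an Egfl7 intron in 7 protein-coding transcripts of the GENCODE annotation and overlapping an exon in 1 transcript with a retained intron. The mature 3p arm covers chr2:26591402-26591423, which is bases 46 to 67 of the 73-base hairpin. Capitals mark the seed in the mature sequences and the 3p arm in the hairpin.
miR-126a-3p: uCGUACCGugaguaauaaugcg
mir-126a hairpin: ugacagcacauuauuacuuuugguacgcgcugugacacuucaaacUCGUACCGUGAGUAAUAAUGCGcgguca
miR-126b-5p: aUUAUUACucacgguacgaguu
The seed of miR-126a-3p was held by 0 other of the 1679 mature names in that table. It holds 2 CG dinucleotides, which 1.13% of those names match or exceed in their seed. miR-126b-5p, from the opposite strand at chr2:26591399-26591420, is complementary to 19 of the 22 bases of miR-126a-3p in an unbroken run. miR-126b was not analysed here. The other members are given by name.

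The 6 members spanned a wide range of levels, and their order was the same in all 6 libraries. miR-143-3p was the 8th most abundant of the 756 miRNAs by its mean over the 6 libraries and took 2.27 ± 0.0459% of normalized reads in withdrawal and 2.10 ± 0.0323% in saline (SD, n = 3 each). miR-126a-5p was 34th, with 0.606 ± 0.012% in withdrawal and 0.620 ± 0.011% in saline. miR-126a-3p was 80th, miR-145a-5p 195th, miR-145a-3p 290th and miR-143-5p 538th. No neighbours in this order came near each other, since no 2 members had ranges that overlapped. Together the 6 took 2.98 ± 0.0357% of normalized reads in withdrawal and 2.83 ± 0.0266% in saline, most of it miR-143-3p. If a step of the table is 1 read, libraries held between 44529730 and 53262896 reads in withdrawal and between 40111870 and 50480767 in saline. On that estimate the counting error of miR-143-5p alone was between 11.5% and 17.4% per library, against 0.459% to 0.524% for miR-126a-3p.

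**Figure D1:**
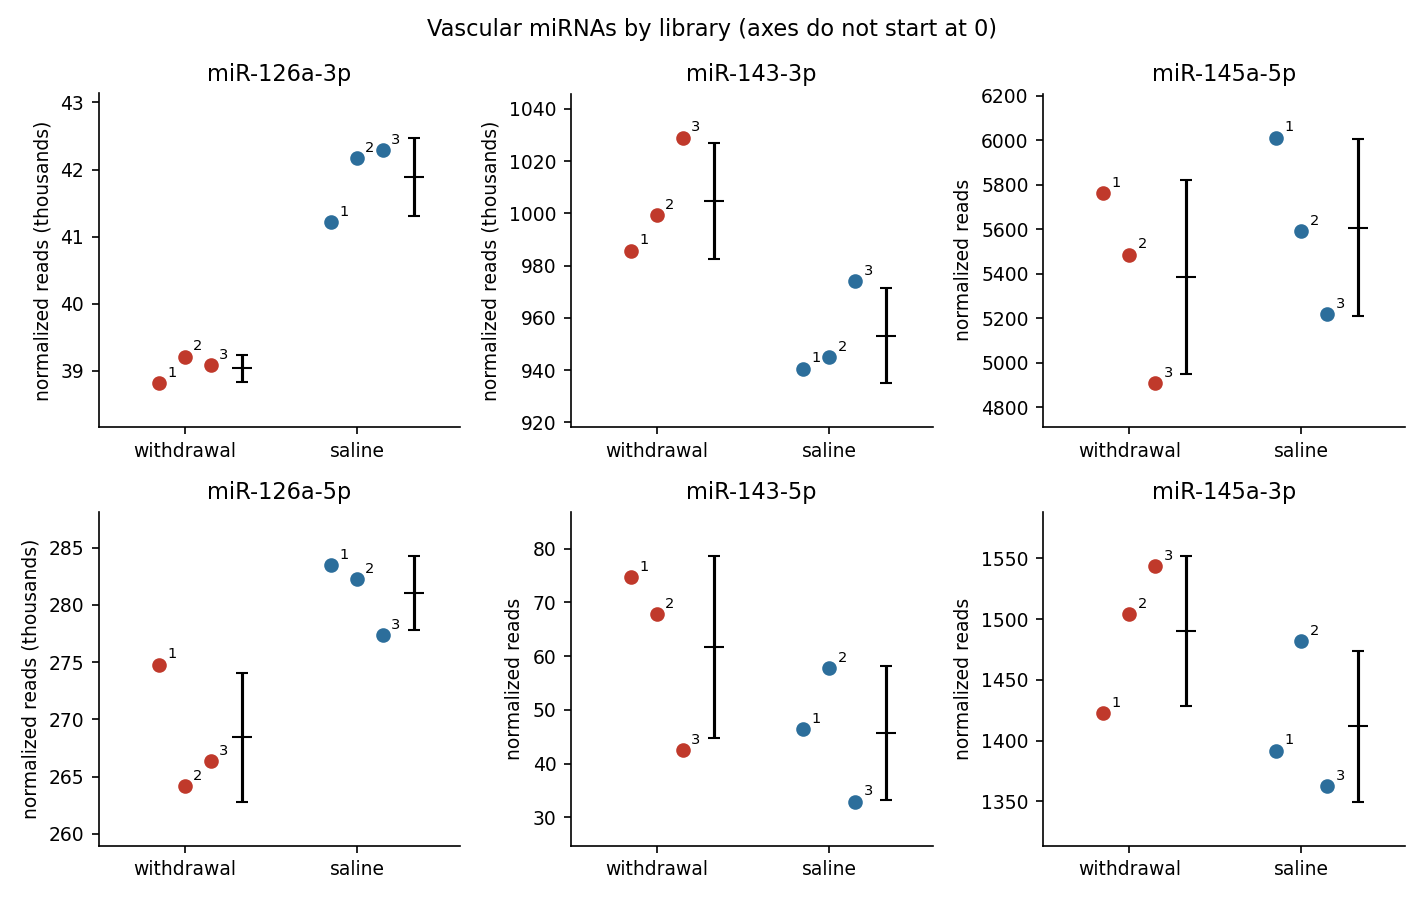
Normalized reads of each member in every library, with withdrawal (red) left of saline (blue), numbers marking the replicate and the bar giving mean ± SD (n = 3 per group). The groups are apart for miR-126a-3p, miR-126a-5p and miR-143-3p and overlap for the other members, and the axes do not start at 0.

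The comparison asks whether the vascular miRNAs differed 1 week after withdrawal. All 6 passed the filter on low values (at least 10 in at least 3 libraries), as 699 of 756 miRNAs did. 1 of the 6 passed the test, limma's moderated test across the 699 with Benjamini-Hochberg adjustment, where 6.58% of all miRNAs passed and 3.58% passed as lower in withdrawal. At an unadjusted p under 0.05 there were 3 of the 6, and 22.9% of all miRNAs. Over all miRNAs 46 passed, 21 higher and 25 lower in withdrawal. With equal library totals the split was 46 higher and 15 lower. The members' median log2 fold change, withdrawal over saline, was 0.01, against 0.00 over all 699, with 3 members above 0 and 3 below.

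Of the endothelial miRNA, the 3p arm fell in withdrawal. miR-126a-3p stood at 38816, 39212 and 39079.6 normalized reads in withdrawal libraries 1 to 3, against 41218, 42165 and 42287 in saline libraries 1 to 3. Each withdrawal library was below each saline library, and the withdrawal libraries lay close together. The means were 39036 ± 201 in withdrawal and 41890.2 ± 585 in saline (SD, n = 3 each), a log2 fold change of -0.10 ± 0.03 (SE, limma, adjusted p = 0.0347), which is 6.81% less. Its 95% interval ran from -0.16 to -0.05 on the log2 scale. Its residual SD of 0.015 on that scale was small: of the 100 tested miRNAs nearest to it in level, 5 had a smaller one, and their median was 0.036. 296 of the 699 had a larger log2 fold change in size. The call was lost without withdrawal 1, withdrawal 2, saline 2 or saline 3 (limma adjusted p = 0.0986, 0.129, 0.142 and 0.103), with equal library totals (-0.07, limma adjusted p = 0.134), with equal totals that left out the most abundant miRNA (-0.08, limma adjusted p = 0.0757) and when limma was run with no variance trend (limma adjusted p = 0.216).

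The 5p arm, which represses the non-canonical Notch ligand Dlk1 in endothelial cells, was the more abundant of the pair and did not pass. miR-126a-5p stood at 274777, 264139.7 and 266366 normalized reads in withdrawal libraries 1 to 3, against 283478, 282235 and 277341 in saline libraries 1 to 3. The withdrawal libraries were again all below the saline ones, by a narrow margin between withdrawal 1 and saline 3. The log2 fold change was -0.07 ± 0.03 (SE), with a 95% interval from -0.12 to -0.01 (limma, unadjusted p = 0.0268, adjusted p = 0.156).

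Of the mural miRNAs, the main arm of miR-143 was higher in each withdrawal library without passing the test. miR-143-3p stood at 985766, 999218 and 1028979 normalized reads in withdrawal libraries 1 to 3, against 940579, 944975 and 973941 in saline libraries 1 to 3. The groups did not overlap. The log2 fold change was 0.08 ± 0.03 (SE), with a 95% interval from 0.01 to 0.14 (limma, unadjusted p = 0.0198, adjusted p = 0.141). It passed with equal library totals (0.11, limma adjusted p = 0.026) and with equal totals that left out the most abundant miRNA (0.10, limma adjusted p = 0.0328), both scalings under which miR-126a-3p did not pass. It also passed with quantile normalization (0.11, limma adjusted p = 0.0377), where miR-126a-3p passed too.

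RefSeq places Mir143 and Mir145a within the same long noncoding RNA gene, Carmn. miR-145a-5p, the main arm of miR-145a, did not pass the test either. It stood at 5763, 5485 and 4908 normalized reads in withdrawal libraries 1 to 3, against 6011, 5593 and 5216 in saline libraries 1 to 3. The groups overlapped, and its log2 fold change was -0.06 ± 0.06 (SE), with a 95% interval from -0.19 to 0.07 (limma, adjusted p = 0.615). Its libraries were more scattered than usual for its level, with a residual SD of 0.11 on the log2 scale against a median of 0.044 for the 100 miRNAs nearest in level, of which 95 had a smaller one. The values of miR-145a-5p fell from library 1 to library 3 in both groups. With a block for the replicate number its SE was 0.03 (limma adjusted p = 0.202).

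The minor arms of the mural pair also overlapped between groups. miR-145a-3p stood at 1422, 1504 and 1543 normalized reads in withdrawal libraries 1 to 3, against 1392, 1482 and 1362 in saline libraries 1 to 3, with a log2 fold change of 0.08 ± 0.05 (SE, limma, adjusted p = 0.397). miR-143-5p stood at 74.7, 67.9 and 42.5 in withdrawal, against 46.4, 57.8 and 32.9 in saline. Its log2 fold change of 0.42 ± 0.25 (SE, limma, adjusted p = 0.336) is the largest among the 6 in size, but its 95% interval ran from -0.12 to 0.96. With a library left out the value lay between 0.21 (without saline 3) and 0.66 (without withdrawal 3), and it did not pass in any of those fits. Its residual SD of 0.413 on the log2 scale was above the median of 0.236 for the 100 miRNAs nearest in level, of which 92 had a smaller one. In all, 3 of the 6 members had groups that did not overlap, 2 lower and 1 higher in withdrawal, as did 27.6% of the 699 (14.6% lower and 13% higher).

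**Figure D2:**
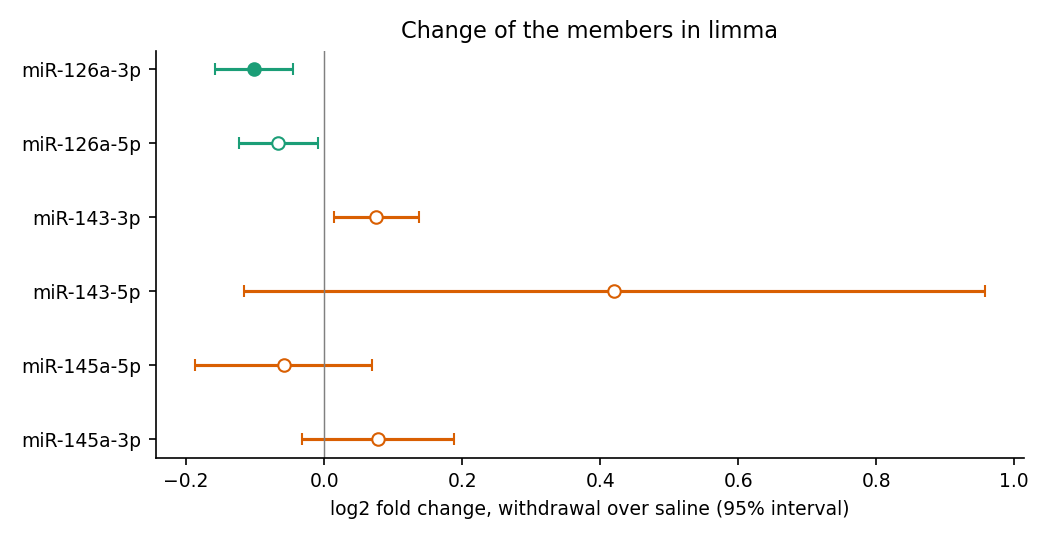
Log2 fold change of each member, withdrawal over saline, with its 95% interval from limma; the filled point passed the adjusted threshold. The miR-126a arms lie below 0 and miR-143-3p above it, and the interval of miR-143-5p, from -0.12 to 0.96, is by far the widest.

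**Figure D3:**
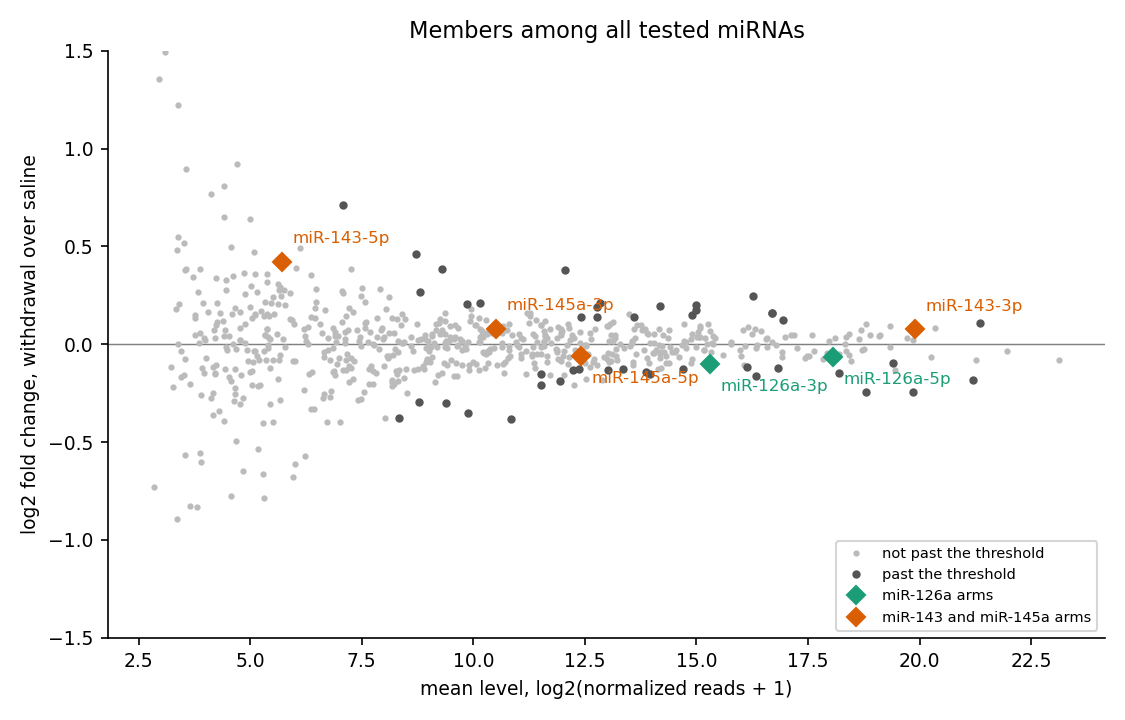
Log2 fold change, withdrawal over saline, against mean level for 696 of the 699 tested miRNAs (3 lie outside the axis or are at 0 in a whole group); dark points passed the threshold. The members of high level have small changes, and miR-143-5p sits at a level where values scatter widely.

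The arms of a precursor come from the same hairpin. A ratio within a library cancels that library's scaling factor, apart from the 1 added to each value. For miR-126a, 5p reads made up 87.3 ± 0.286% of both arms in withdrawal and 87.0 ± 0.269% in saline (SD, n = 3 each). miR-145a also favoured its 5p arm, with 78.3 ± 2.07% in withdrawal and 79.8 ± 1.18% in saline. miR-143 was the reverse: in withdrawal libraries 1 to 3 there were 13204, 14717 and 24183 reads of 3p per read of 5p, against 20256, 16356 and 29568 in saline libraries 1 to 3. Of the 203 precursors with both arms tested, miR-143 had the lowest ratio of 5p to 3p reads.

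No arm ratio of the 3 precursors differed past the threshold, and neither did any other of the 203 (0% passed in limma with Benjamini-Hochberg adjustment, 33 at an unadjusted p under 0.05). The log2 ratio of 5p to 3p of miR-126a was 2.82, 2.75 and 2.77 in withdrawal libraries 1 to 3, against 2.78, 2.74 and 2.71 in saline libraries 1 to 3, a difference of 0.04 ± 0.04 (SE, limma, adjusted p = 0.718) with a 95% interval from -0.07 to 0.14. So the changes of the 2 arms were not shown to differ. The difference was -0.14 ± 0.11 for miR-145a, with an interval from -0.41 to 0.13, and 0.34 ± 0.31 for miR-143, with an interval from -0.44 to 1.13 (limma, adjusted p = 0.568 and 0.596). With a library left out they lay between -0.22 (without withdrawal 1) and -0.05 (without withdrawal 3) for miR-145a, and between 0.12 (without saline 3) and 0.61 (without withdrawal 3) for miR-143. That of miR-126a lay between 0.01 (without withdrawal 1) and 0.05 (without saline 1). In both miR-145a and miR-143, withdrawal 3 had the lowest ratio of its group. The groups overlapped in all 3 precursors, while they did not in 27.1% of the 203.

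Ratios between loci within a library likewise cancel its scaling factor, and 3 were compared. The log2 ratio of miR-126a-3p, the endothelial miRNA, to miR-143-3p, the mural one, was -4.67, -4.67 and -4.72 in withdrawal libraries 1 to 3, against -4.51, -4.49 and -4.53 in saline libraries 1 to 3. Each withdrawal library was below each saline library, with a gap between groups wider than the range within either. That separation follows from the values above, where miR-126a-3p was lower and miR-143-3p higher in each withdrawal library. The separation also fixes the exact p below, so neither is further support. There were 25.4, 25.5 and 26.3 reads of miR-143-3p per read of miR-126a-3p in withdrawal, against 22.8, 22.4 and 23.0 in saline. The difference was -0.18 ± 0.02 (SE), with a two-sided exact permutation p = 0.1, the smallest that 3 against 3 libraries allow, and an adjusted p = 0.3 over the 3 ratios.

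The same endothelial miRNA set against miR-145a-5p gave groups that overlapped. That log2 ratio averaged 2.86 ± 0.122 in withdrawal and 2.90 ± 0.121 in saline (SD, n = 3 each, difference -0.04 ± 0.10 SE, exact permutation p = 0.7, adjusted 0.7). Without withdrawal 1 or without saline 3 its direction turned (0.01 in each case). miR-145a-5p against miR-143-3p, a pair from a single transcript, averaged -7.55 ± 0.15 in withdrawal and -7.41 ± 0.128 in saline (difference -0.13 ± 0.11 SE, exact permutation p = 0.4, adjusted 0.6), and the groups overlapped. With a library left out that difference lay between -0.20 (without saline 3) and -0.05 (without withdrawal 3). There were between 171 and 209.6 reads of miR-143-3p per read of miR-145a-5p in withdrawal and between 156 and 187 in saline.

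**Figure D4:**
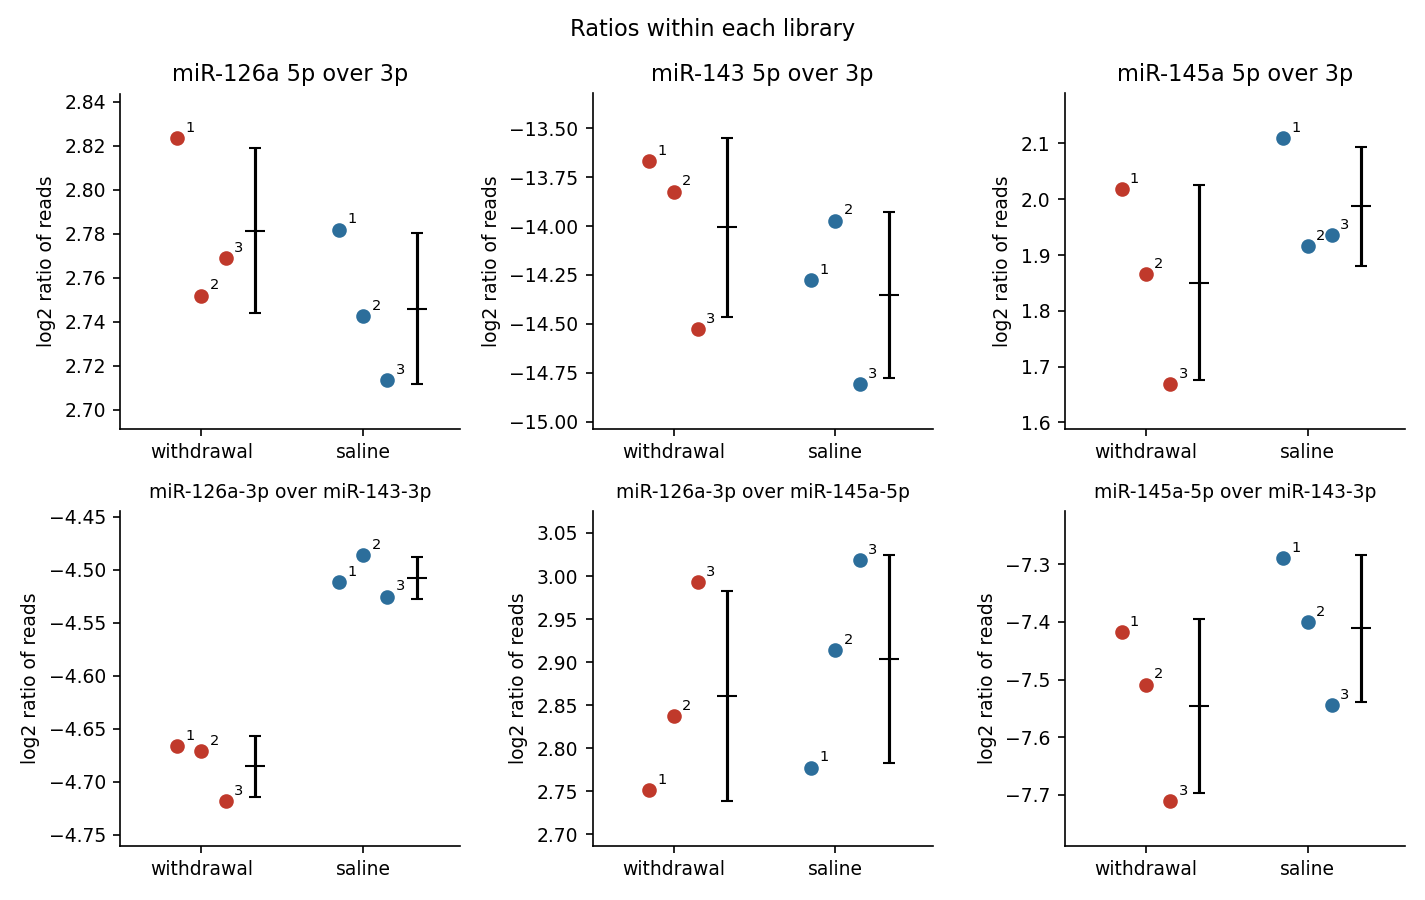
Log2 ratios of reads within each library, for the arms of each precursor (top) and between loci (bottom), with withdrawal (red) left of saline (blue), numbers marking the replicate and bars giving mean ± SD (n = 3 per group). The ratio of miR-126a-3p to miR-143-3p is the one of the 6 in which the groups do not overlap, as follows from the separate groups of both members.

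The miRNAs with the most similar profiles across the 6 libraries were found by the root mean square difference of log2 values, each centred on its own mean. For miR-126a-3p they were miR-92a-3p (0.017), miR-31-5p (0.017) and miR-872-5p (0.019), where the median over the other tested miRNAs was 0.106. miR-92a-3p, an arm of the miR-17-92 cluster known to act in endothelial cells, stood at 68988, 68666 and 70227 normalized reads in withdrawal libraries 1 to 3, against 74830.4, 74611 and 75822 in saline libraries 1 to 3. Other miRNAs of that cluster did not share its fall. miR-17-5p, miR-18a-5p, miR-19a-3p and miR-20a-5p had log2 fold changes of 0.07, 0.07, 0.18 and 0.08. None of those passed (limma adjusted p from 0.274 to 0.777). For miR-143-3p the most similar were miR-192-5p (0.0059), miR-431-3p (0.0064) and miR-1298-3p (0.016). For miR-145a-5p they were miR-331-3p (0.028), miR-3084-3p (0.037) and miR-26a-2-3p (0.043). None of the 6 members was among the candidates. A close profile over these libraries fixes the direction of the change as well, so the likeness is a description only.

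Other miRNAs known from vessels moved in both directions. Of 24 miRNAs linked to endothelium and the growth of vessels, 21 were tested, 1 rose and 3 fell in withdrawal, where 3% of all 699 rose and 3.58% fell. The median log2 fold change was 0.03, with 13 above 0 and 8 below. The summed level of the 22 in the table ran from 2846068 to 2928919 normalized reads in withdrawal and from 2862011 to 2995373 in saline, so the groups overlapped. miR-10b-5p, from a Hox cluster, rose (0.38 ± 0.08, limma adjusted p = 0.013). miR-322-5p, which is induced by low oxygen in endothelium, miR-130a-3p, which represses homeobox genes that hold back angiogenesis, and miR-92a-3p fell by 0.21 ± 0.04, 0.13 ± 0.03 and 0.12 ± 0.03 on the log2 scale (limma adjusted p = 0.00885, 0.0396 and 0.0156). The most abundant, miR-27b-3p, stood at -0.06 ± 0.03 (limma adjusted p = 0.216). miR-322-5p lost its call without saline 2 (limma adjusted p = 0.0687), miR-10b-5p without saline 2 or saline 3 (0.0793 and 0.0541), miR-92a-3p without withdrawal 1, withdrawal 2, saline 2 or saline 3 (from 0.0515 to 0.106), and miR-130a-3p without any of the 6 libraries (from 0.0693 to 0.129). With equal library totals miR-92a-3p and miR-130a-3p lost theirs (limma adjusted p = 0.0537 and 0.104), and with quantile normalization miR-10b-5p and miR-130a-3p did (0.078 and 0.0944). With equal totals that left out the most abundant miRNA, miR-130a-3p lost its call (0.0842). Brain cells other than endothelium express most of this list.

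Of 17 miRNAs linked to smooth muscle and mural cells, all tested, 3 rose and 0 fell in limma (1 lower at an unadjusted p under 0.05), with a median log2 fold change of 0.04 (10 above 0 and 7 below). Over all 699, 3% rose and 3.58% fell. The summed level of the 17 was lower in each withdrawal library, from 3546452 to 3592802 normalized reads against 3656297 to 3722002 in saline. The total over all 756 miRNAs was lower in each withdrawal library too, from 44098338 to 44437368 against 44870956 to 45619789 in saline. Most of the sum of the 17 was miR-26a-5p, which averaged 2437100.5 in withdrawal and 2579579 in saline and did not pass (-0.08 ± 0.03, limma adjusted p = 0.108). miR-1a-3p, which drives muscle differentiation, stood at 502, 476 and 494 normalized reads in withdrawal libraries 1 to 3, against 402, 404 and 415 in saline libraries 1 to 3, and rose by 0.27 ± 0.06 (limma adjusted p = 0.0246). miR-29b-3p, a repressor of collagen genes, and miR-100-5p, a repressor of mTOR, rose by 0.20 ± 0.04 and 0.12 ± 0.03 (limma adjusted p = 0.0157 and 0.0396). miR-29b-3p lost its call without withdrawal 2 (limma adjusted p = 0.0959), while miR-1a-3p and miR-100-5p lost theirs without each library other than withdrawal 3 (from 0.0517 to 0.0953 and from 0.0569 to 0.199). With quantile normalization miR-29b-3p and miR-1a-3p lost theirs (limma adjusted p = 0.228 and 0.0601). With no variance trend 0 miRNAs of any list passed, as over all 699. miR-145b, a separate gene whose name resembles that of miR-145a, was near the filter at means of 12.4 normalized reads in withdrawal and 9.8 in saline. 5 miRNAs stand in both lists.

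Some markers of other cells of the tissue also differed between the groups, and their part in the results above was not tested. Over all 699 miRNAs, 3% passed as higher and 3.58% as lower. The summed level of 7 erythrocyte miRNAs ran from 232846.5 to 239866 normalized reads in withdrawal and from 208554 to 215483 in saline, with 2 of 7 higher past the threshold. Those are miR-486a-5p and miR-486b-5p, whose reads may be shared (0.16 ± 0.03 each, limma adjusted p = 0.00673, lost with quantile normalization at 0.14 and 0.19). They made up most of the sum, with means of 111256 and 111101 in withdrawal. The other 5 did not pass, among them miR-451a (0.15 ± 0.05, limma adjusted p = 0.0688) and miR-486a-3p (-0.15 ± 0.09, limma adjusted p = 0.307). Of the 7 log2 fold changes, 6 lay above 0 and 1 below. The sum of 13 choroid plexus and epithelial miRNAs, 12 of them tested, ran from 107388 to 108716 in withdrawal and from 100305 to 104214 in saline, with 3 higher (miR-141-3p, miR-182-5p and miR-183-5p). The choroid plexus miRNAs miR-204-5p, the most abundant of the list, and miR-211-5p did not pass. They stood at 0.07 ± 0.03 and 0.03 ± 0.10 (limma adjusted p = 0.156 and 0.925). Like the total over all 756 miRNAs, the sum of 6 leukocyte and microglia miRNAs was lower in withdrawal. It ran from 42915 to 43239 against 44103 to 45733 in saline, with miR-150-5p lower and miR-146a-5p higher past the threshold. By number, 4 of the 6 had log2 fold changes above 0 and 2 below, with a median of 0.08, and the most abundant of the 6 was miR-150-5p (-0.13 ± 0.03). Of these, miR-141-3p lost its call without saline 2 (limma adjusted p = 0.0539), miR-146a-5p without saline 2 or saline 3 (0.0807 and 0.0515), and miR-150-5p without withdrawal 1, withdrawal 2, saline 2 or saline 3 (from 0.0568 to 0.14). With quantile normalization miR-141-3p, miR-182-5p, miR-146a-5p and miR-150-5p lost their calls (0.0633, 0.077, 0.193 and 0.0944), and with equal library totals, with or without the most abundant miRNA in them, miR-150-5p did (0.0919 and 0.074). The 5 fibroblast and meningeal miRNAs in the table, which would mark larger vessels and the surface of the brain, summed to between 2377 and 2544 in withdrawal and between 2325 and 2469 in saline, and none of the 5 passed (limma, 1 at an unadjusted p under 0.05, miR-199a-5p at 0.49 ± 0.19, with miR-152-3p, the most abundant, at 0.04 ± 0.05). All 5 fibroblast and meningeal log2 fold changes lay above 0, with a median of 0.04. Those of miR-199a-3p and miR-199b-3p were nearly equal (0.036 and 0.035), and reads of that pair may be shared. Of the 5 fibroblast and meningeal miRNAs, 2 had groups that did not overlap, as did 27.6% of the 699. That count was 9 of 12 for choroid plexus and epithelial, 2 of 7 for erythrocyte and 2 of 6 for leukocyte and microglia miRNAs. For the remaining lists it was 11 of 21 endothelial, 8 of 17 mural, 5 of 8 neuronal and 1 of 4 oligodendrocyte miRNAs. No listed miRNA in the table was at 0 in all libraries.

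Markers of brain tissue were abundant. Their calls stand beside 3% of all 699 miRNAs higher and 3.58% lower past the threshold. The 8 neuronal miRNAs summed to between 3254043 and 3317002 normalized reads in withdrawal and between 3306749 and 3333950 in saline, with 1 lower past the threshold (miR-138-5p, lost without saline 2 at limma adjusted p = 0.0687) and miR-9-5p, the most abundant, at 0.09 ± 0.03. Of the 8 neuronal log2 fold changes, 5 lay above 0 and 3 below, with a median of 0.03. The 4 oligodendrocyte miRNAs summed to between 107207.5 and 110571 in withdrawal and between 113199 and 119834 in saline, with 1 lower (miR-338-3p, the most abundant, at -0.16 ± 0.03). The other 3 did not pass, and of the 4 log2 fold changes 2 lay above 0 and 2 below, with a median of 0.03. The total over all 756 miRNAs was also lower in each withdrawal library, from 44098338 to 44437368 normalized reads against 44870956 to 45619789 in saline. Its part in the lower oligodendrocyte sum was not tested.

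**Figure D5:**
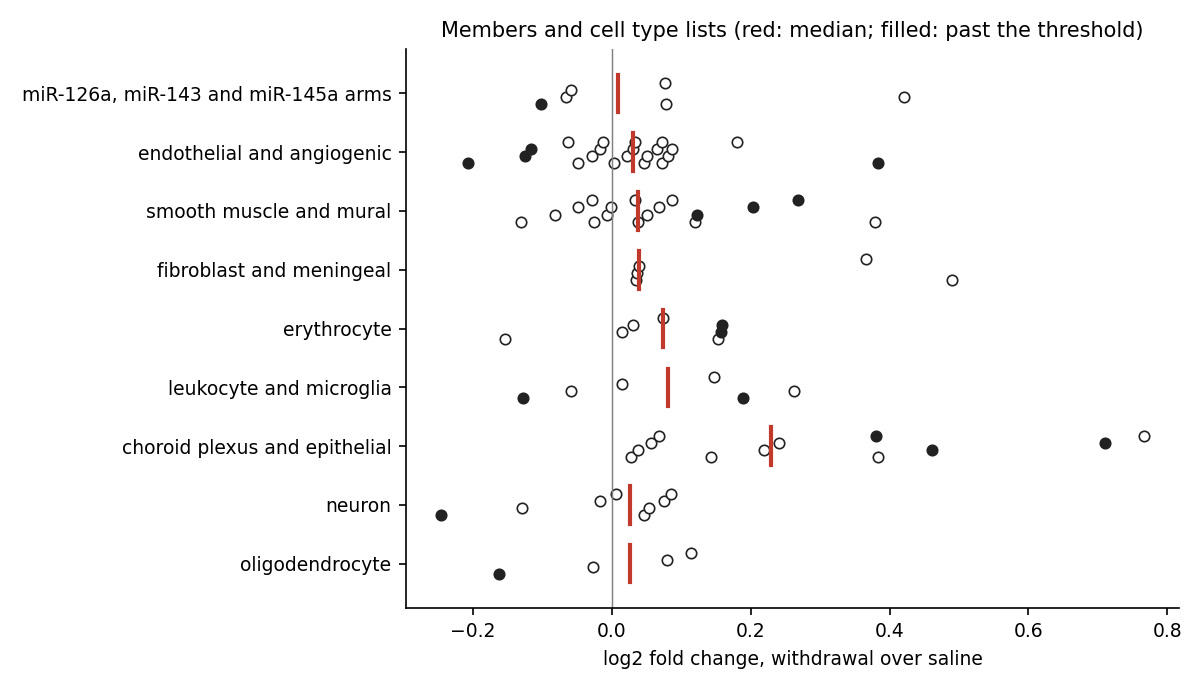
Log2 fold change, withdrawal over saline, of the 6 members and of the tested miRNAs of each cell type list, where filled points passed the threshold and red bars are medians. The endothelial and the mural lists lie on both sides of 0, while the choroid plexus and epithelial list has a median of 0.23 and no member below 0.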

How the data were processed

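RNA was extracted with Trizol and made into TruSeq small RNA libraries, per the labels' protocols. The authors deposited 1 table of normalized signal, where read counts have been scaled by library size factors. DESeq2 and mm9 are named, with no role, per the submitters' processing notes. Not given in the sources used here are the aligner, the miRNA release and how reads of similar miRNAs were shared out. In each library the values were multiples of a step (100% within 0.01 of a whole one), and the smallest positive value was 4 or 5 steps, so reads were estimated for depth alone and no count test was run. Intervals from them cover counting error only.

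Values were tested as log2(value + 1) after a filter of at least 10 in at least 3 libraries, with limma 3.58.1 in R 4.3.3, a variance trend, two-sided, a threshold of 0.05 and adjustment over all 699. Adding 1 makes fold changes of low miRNAs too small. Arm ratios used limma without the trend, and ratios between loci an exact permutation test (scipy 1.17.1). Code was tested on simulated data.

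The members, lists and naming rule were chosen with earlier results of these data known. The rule names the members, 3 miRNAs of most similar profile for each of 3 members, and of each list the most abundant, the one with the smallest p and those past the threshold; miR-145b was named outside it, after its value was seen. The labels speak of 3 nicotine mice, and libraries were taken to be separate mice; if they are not, p-values reflect only how these samples scatter, which may be technical. Alternatives were other pseudocounts, filters, scalings and variance models, a block for the replicate number, and leaving out each library. Sequences are from RefSeq (GRCm38.p6), in which 1 of the 6 members had a mature entry; that build is not mm9, and the table holds no coordinates. Tables and plots were made with pandas 2.3.3, matplotlib 3.10.9 and Python 3.11.15.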

Additional observations from a re-analysis of the deposited data

How the results depend on the processing

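The count of 1 member past the threshold (miR-126a-3p) was also found with pseudocounts of 0.5 and 5, with no filter, with filters of 50 and of values above 0 in every library, with median-ratio rescaling and with a robust prior. With equal library totals, and with equal totals after leaving out the most abundant miRNA, the count was again 1, but the member was miR-143-3p. Without the variance trend it was 0 (limma, smallest adjusted p = 0.141 over all miRNAs, 112 at an unadjusted p under 0.05), and it was 2 with quantile normalization and from 0 to 1 with a library left out. Over all miRNAs the 46 became 0, 23 and from 13 to 58 in those 3 cases, and the cause was not tested. miR-126a-3p passed in 11 of 18 settings and ranged from -0.11 to -0.07, with adjusted p from 0.00613 to 0.216. miR-143-3p passed in 4 of 18 (0.06 to 0.11) and miR-126a-5p in 1 of 18 (-0.08 to -0.03). miR-143-5p and both miR-145a arms passed in 0. Equal totals moved the median log2 fold change of all miRNAs to 0.04.

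In a fit with a replicate block, 3 members passed (miR-126a-3p, miR-126a-5p and miR-143-3p) and 106 miRNAs over all. Deviations from the group means correlated across miRNAs at r = -0.07, 0.09 and 0.04 between libraries of the same number. By the same measure 3 of 6 libraries correlated best with their own number. The numbers were not taken to pair the libraries. These correlations weigh every tested miRNA alike, so they cannot exclude a pairing carried by some. From library 1 to library 3, miR-145a-5p fell and miR-143-3p rose in both groups. The block gave 0 arm ratios past the threshold, and an exact sign-flip p = 0.25 for each of the 3 ratios between loci, the smallest that 3 pairs allow.

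Leaving out withdrawal 3 turned the log2 fold change of miR-145a-5p (0.0065) and those of miR-331-3p and miR-3084-3p, which with a library left out ranged from -0.087 to 0.021 and from -0.081 to 0.016; miR-3084-3p also turned without saline 1 (0.014). The ratio of miR-126a-3p to miR-145a-5p ranged from -0.109 to 0.0148 with a library left out, that to miR-143-3p from -0.19 to -0.16, and that of miR-145a-5p to miR-143-3p from -0.20 to -0.05. Arm ratios of the 3 precursors past the threshold were 0 in every setting run. The planned count models were not run, because these are normalized values. On the estimate of reads, counting error of miR-143-5p was between 11.5% and 17.4% per library.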
